A study of Mus musculus with 36 samples.

Results

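The homeobox and Pax genes encode transcription factors that set the identity of brain regions and of the cell types within them. They were taken here as the genes whose symbols match the Hox, Lhx, Lmx1, Dlx, Emx, Otx, En, Irx, Nkx, Pou3f, Pou4f, Pou6f, Pax, Pitx, Meis, Pbx and Barhl families. Of 120 symbols that matched, 4 antisense symbols ending in os (Hoxa11os, Hoxb5os, Lhx1os and Nkx2-2os) were left out, which gave 116 genes of the 24421 in each tissue's count table. They comprise 40 Hox symbols, 14 of Nkx, 10 of Lhx and Lmx1, 10 of Pax, 9 of Dlx, 9 of Pou3f, Pou4f and Pou6f, 7 of Meis and Pbx, 6 of Emx, Otx and En, 6 of Irx, 3 of Pitx and 2 of Barhl. No measured value entered this choice. Of the 116, 5 are non-coding (Dlx1as, Dlx6os1, Dlx6os2, Hoxd3os1 and Pax6os1).

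Polyadenylated RNA of the cerebellum and of the hippocampus was sequenced from the same 18 adult C57Bl/6 mice, 3 males and 3 females of each genotype. Controls carried Pogzfl/fl without Cre, cKO+/- mice carried NesCre/+; Pogzfl/+ and cKO-/- mice carried NesCre/+; Pogzfl/fl. The floxed exons of Pogz, which codes for a chromatin-associated zinc finger protein, are removed by a Cre driven by the Nestin promoter, which acts in the nervous system and leaves other cells, such as those of vessels or infiltrating blood, with their alleles. No control carried the Cre, so the Cre and the deletion cannot be told apart between controls and mutants. The question asked of each gene was whether its level followed the number of intact Pogz alleles (2, 1 or 0).

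Homeodomain and paired-domain proteins bind short AT-rich or paired-type DNA motifs, and most act with partners. Hox genes lie in 4 clusters, and their order along a cluster follows the order of their expression along the hindbrain and spinal cord. Meis and Pbx proteins are the partners that Hox proteins bind DNA with. Emx, Otx and Lhx2 pattern the forebrain, En1 and En2 the midbrain and anterior hindbrain from which the cerebellum arises, Dlx genes the GABAergic neurons born in the ventral forebrain, and Barhl and Pax6 the granule neurons of the cerebellum.

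Cerebellar libraries held 21421850 to 32544929 counts and hippocampal libraries 17609321 to 45544188. Levels are given as CPM, read counts scaled to a common library size. Pogz was at 89.6 to 130 CPM in control, 66.4 to 81.5 in cKO+/- and 57.0 to 74.0 in cKO-/- cerebella, and at 89.0 to 92.8, 74.0 to 80.2 and 58.7 to 67.7 CPM in the hippocampi, without overlap between controls and mutants (log2 change per allele -0.30 and -0.28, adjusted p = 0.000356 and 1.79e-07, edgeR). The values left in cKO-/- mice can include reads of undeleted exons and of cells without Cre, which counts per gene do not separate. The hippocampal cKO-/- library of animal Sample_1160 stood apart (392 counts of Prox1, the dentate granule cell factor, against 1096 to 4214 in the other 17 libraries) and was left out of the hippocampal tests, with the value over all 18 given where it differs. The study excluded an RNA sample as an outlier without naming it. Animals are named here as in their labels, with the same name for both tissues. All 6 controls have numbers between Sample_1120 and Sample_1219 (a range that also served as a covariate), while 3 cKO+/- mice (Sample_933, Sample_938 and Sample_1433) and 4 cKO-/- mice (Sample_936, Sample_1371, Sample_1379 and Sample_1385) do not, and the labels do not say what the numbers mark. The cerebellar granule cell list summed to 7827 to 9023 CPM in control cerebella and 2084 to 2389 in control hippocampi, and the hippocampal neuron list to 910 to 1240 and 2111 to 2677 CPM, so that each tissue carried its own list.

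In control mice the families divided sharply between the tissues. A gene was tested in a tissue when it exceeded 1 CPM in at least 6 libraries. Of the 116 genes, 17 passed in both tissues, 15 in the cerebellum only, 12 in the hippocampus only and 72 in neither, and no Hox or Pitx gene passed in either. Levels of different genes are compared per length of their exons. The highest in control cerebellum was En2, at 54.9 ± 4.53 CPM per kb (SD, n = 6), followed by Pax6 (23.9 ± 1.71), Barhl2 (22.1 ± 1.48) and Lhx1 (18.5 ± 4.11), the last a factor of Purkinje cells. Pou6f1, Meis3, Meis1 and Pbx2 followed at between 16.3 and 18.1 CPM per kb, a spread no wider than that of Meis3 alone (17.6 ± 2.40). In control hippocampus Pou3f3, an upper-layer and CA1 neuron factor, was highest at 32.5 ± 2.72 CPM per kb, followed by Pou6f1 (27.6 ± 2.01), the forebrain selector Lhx2 (25.4 ± 1.61) and Pou3f1 (24.96 ± 3.90). Lhx2 and Pou3f1 lay within each other's spread. Pbx2 and Meis3 stood at 20.2 and 18.1 CPM per kb, and Emx1, a factor of dorsal forebrain neurons, at 11.4 ± 1.10.

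Between the tissues of the 6 control mice, 37 of 41 genes tested were called at an FDR of 0.05, 20 higher in hippocampus and 17 higher in cerebellum. Of all 14224 genes tested in this comparison 71.9% were called, 35.2% higher in hippocampus and 36.7% higher in cerebellum. The values that follow are CPM on a scale set jointly over the 12 control libraries. En2 ranged from 165 to 211 CPM in cerebella and from 0.432 to 9.57 in hippocampi. Barhl2 ranged from 45.5 to 54.0 in cerebella and from 0.111 to 2.06 in hippocampi, and Barhl1 from 17.96 to 21.5 and from 0 to 1.14. In all 3 every cerebellum lay far above every hippocampus. The LIM factors Lhx1 (49.5 ± 11.1 CPM, SD, against 0.616 ± 0.964) and Lhx5 (22.5 ± 2.54 against 0.416 ± 0.463) and the paired-box factor Pax3 (8.11 ± 0.834 against 0.0987 ± 0.218) were separated in the same way. On the log2 scale these differences (hippocampus minus cerebellum) were -6.71 for Barhl2, -6.55 for En2, -6.44 for Lhx1, -6.43 for Pax3, -6.38 for Barhl1 and -5.81 for Lhx5, with adjusted p-values between 4.63e-09 and 3.04e-07 by edgeR's quasi-likelihood test. For each of these genes, the highest hippocampal value was that of control Sample_1129. This library also held 1773 counts of Gabra6 and 688 of Pcp2, genes of cerebellar granule and Purkinje cells, against 1 to 44 and 13 to 28 in the other 5 control hippocampi. Without both libraries of Sample_1129, cerebellar and hippocampal, the difference widened to -8.04 for Barhl2, -7.89 for En2, -7.78 for Lhx1, -9.14 for Pax3, -8.10 for Barhl1 and -6.57 for Lhx5.

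The forebrain genes were almost absent from control cerebellum. Lhx2 was at 65.7 to 79.6 CPM in hippocampi and held 2 counts in all 6 cerebella together, a ratio of 6510.1 with an exact 95% Poisson interval from 1802 to 53756. Emx1 (12.2 to 16.0 CPM in hippocampi, 1 count in cerebella) gave a ratio of 2430 (436 to 95980), Dlx1as (14.7 to 18.6 CPM, 2 counts) one of 1486 (411 to 12266) and Emx2 (17.9 to 21.1 CPM, 3 counts) one of 1123 (384 to 5447). Such intervals cover counting error only. The interneuron transcript Dlx6os1 (14.0 to 19.3 CPM in hippocampi) and the genes Dlx2 (3.46 to 5.66), Dlx5 (2.33 to 3.86) and Dlx6 (1.77 to 3.57) held no count in any control cerebellum. Against a floor of 3 counts over the group, they were at least 1012-fold, 260-fold, 184-fold and 159-fold higher in hippocampus. Dlx4 was the 1 tested gene of its family that was higher in cerebellum, at 1.44 ± 0.235 CPM in cerebella and 0.103 ± 0.0672 in hippocampi. Dlx1 and Dlx1as, Dlx6 and Dlx6os2, and Dlx4 and A730090H04Rik share exonic sequence on opposite strands. Whether counting used strand is not stated, so that the members of each pair cannot be separated fully.

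The Irx and Pax families lay on the cerebellar side, the POU genes on the hippocampal side where they were called, and the cofactors and LIM genes were split. All 4 Irx genes tested were higher in cerebellum, with log2 differences of -3.16 for Irx1, -2.86 for Irx2, -3.80 for Irx3 and -4.02 for Irx5. The hippocampal value of Irx2 was highest in control Sample_1172, and without this animal its difference was -5.20. All 4 Pax transcripts tested, Pax2, Pax3, Pax6 and Pax6os1, were higher in cerebellum, with Pax6 at 110 ± 7.68 against 9.56 ± 2.40 CPM and Pax2, a factor of cerebellar GABAergic interneurons, at 8.67 ± 1.16 against 0.399 ± 0.239 CPM. Among the Meis and Pbx cofactors, Meis1 (55.3 ± 3.01 against 1.63 ± 0.889 CPM) and Pbx3 (26.9 ± 3.59 against 6.43 ± 2.02) were higher in cerebellum. Meis2 (0.897 ± 0.829 against 42.9 ± 9.95 CPM), Pbx4 and Pbx2 were higher in hippocampus, the last by 0.40 on the log2 scale. Of the POU genes, Pou3f1 (1.33 ± 0.394 against 77.7 ± 12.5 CPM) and Pou3f3 (42.4 ± 3.55 against 103 ± 8.96) were higher in hippocampus, as were the LIM factors Lhx6 (0.471 ± 0.275 against 19.5 ± 2.52), of cortical and hippocampal interneurons, and Lhx9 (0.207 ± 0.173 against 17.1 ± 5.34). Otx2, Meis3, Pou3f2 and Nkx6-2 were not called, with adjusted p-values of 0.116, 0.171, 0.406 and 0.916 by edgeR's test. Otx2, which in the adult brain marks choroid plexus as well as cerebellar granule cells, ranged from 6.45 to 9.83 CPM in control cerebella but from 0.139 to 20.1 in control hippocampi. Without control Sample_1129 its log2 difference of -1.50 became -2.37 and was called, with an adjusted p-value of 0.0115 by edgeR.

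**Figure D1:**
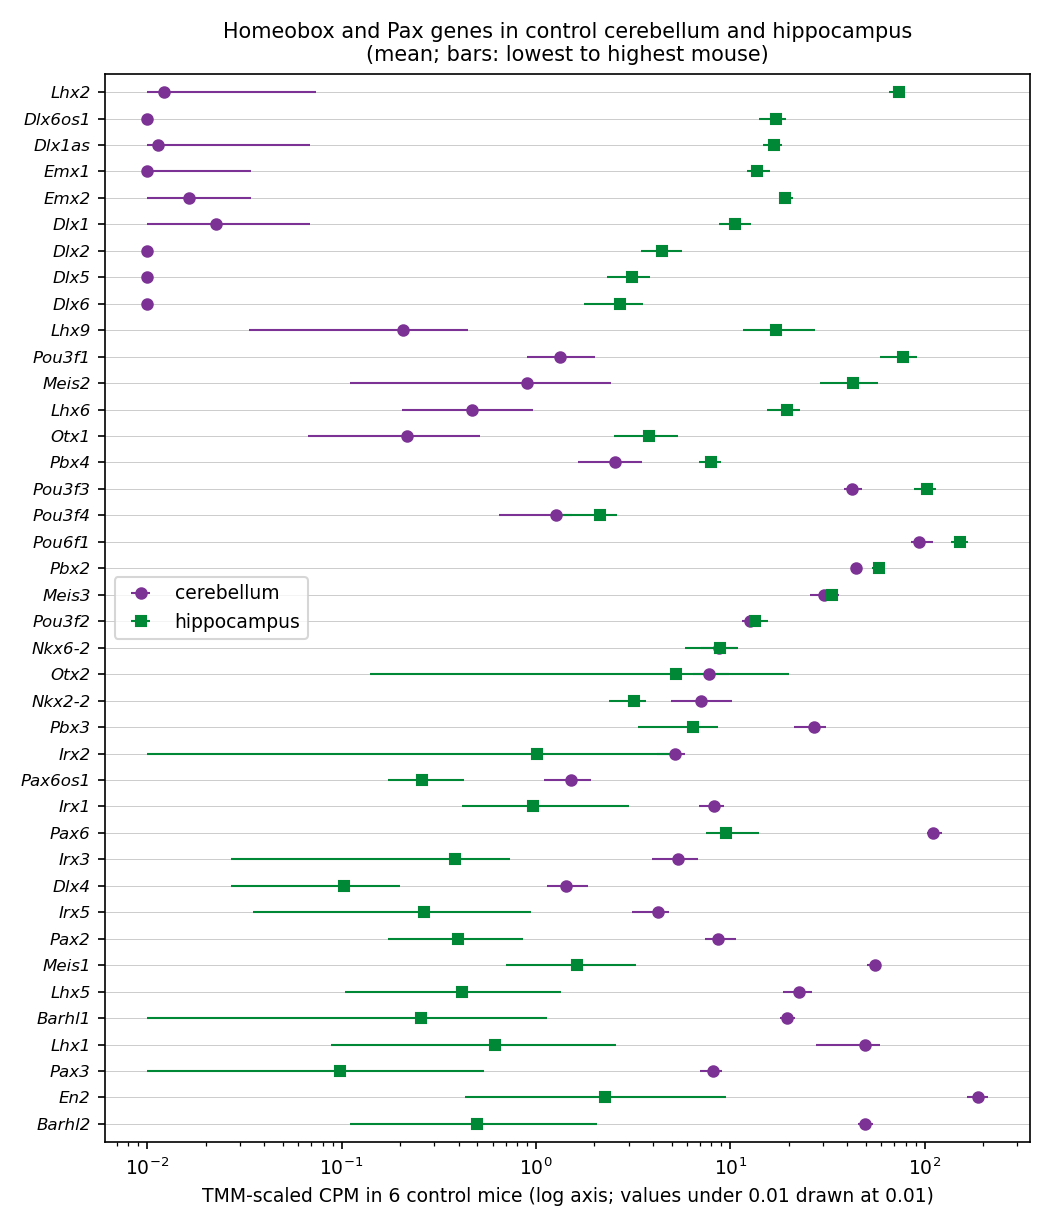
Mean CPM (log axis) of 40 of the 41 tested homeobox and Pax genes in the cerebellum and hippocampus of the same 6 control mice, with bars from the lowest to the highest mouse and genes in order of their ratio. Lhx2, Emx1, Emx2 and most Dlx genes sit at the left edge in cerebellum, while the hippocampal bars of En2, Barhl1 and Pax3 end at the value of control Sample_1129 and that of Irx2 at control Sample_1172.

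In the cerebellum, loss of Pogz alleles went with a lower level of the granule neuron factors Barhl1 and Meis1, and with higher levels of Meis2, Irx1 and Pou3f4. These were the 5 genes called among 32 tested, 3 higher and 2 lower, that is 15.6%, beside 13.7% of all 14027 genes tested (7.11% higher and 6.55% lower). The share was near that of all genes. The median change over the 32 was 0.09 on the log2 scale per allele lost, and over all genes tested 0.00, with 21 of the 32 above 0 and 11 below. Of the 21, Lhx9 passed the filter only through mutant libraries. Meis2, with most controls under 1 CPM, also needed mutant libraries to pass. By family, the count called was 1 of 2 for Barhl (median log2 change -0.20), 2 of 7 for Meis and Pbx (-0.02), 1 of 4 for Irx (0.15) and 1 of 5 for the POU genes (0.15). It was 0 of 3 for Lhx and Lmx1 (median 0.17), 0 of 3 for Emx, Otx and En (-0.06), 0 of 3 for Nkx (0.12), 0 of 4 for Pax (-0.00) and 0 of 1 for Dlx (0.19). Of the 32, 2 had cKO-/- and control libraries that did not overlap, Barhl1 and Pou3f4, which is 6.25% beside 4.58% of all genes tested.

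Barhl1, a BarH-like factor of the rhombic lip and of granule neurons, is transcribed from the minus strand of chromosome 2 (28907680 to 28916440 in the count table, whose coordinates match GRCm38). It was at a lowest, median and highest of 18.5, 20.1 and 22.3 CPM in controls, 14.1, 18.6 and 20.3 in cKO+/- and 9.82, 14.0 and 15.3 in cKO-/- cerebella. All 6 cKO-/- libraries lay below all 6 controls, and cKO+/- libraries overlapped both. The change was -0.29 on the log2 scale per allele lost (SE 0.056, adjusted p = 0.00315, edgeR), and the means of controls and cKO-/- mice differed with p = 0.00216 in a 2-sided exact permutation test, the smallest p it can give. Barhl1 was named by its call on the same libraries, and their full separation sets this p, so it is not separate support. The cKO-/- mice Sample_1160 and Sample_1219, whose numbers lie in the range of the controls, were at 13.9 and 14.0 CPM. With a covariate for the number range the change was -0.22 (adjusted p = 0.0944, edgeR). Its relative Barhl2 was at 46.8 to 56.3 CPM in controls and 26.8 to 56.0 in cKO-/- mice and was not called (log2 change -0.12, adjusted p = 0.379, edgeR). The granule cell list, which shares no gene with the families here, summed to 7827 to 9023 CPM in controls and 4749 to 9703 in cKO-/- cerebella, with none of its 11 genes called. Among cKO-/- libraries its lowest sums, 4749, 5388 and 6237 CPM, were those of Sample_1385, Sample_1371 and Sample_1379, in which Barhl1 was at 15.2, 9.82 and 15.3 CPM. In cKO+/- Sample_1433 the list summed to 5353 CPM. In bulk tissue, fewer cells of a type and less RNA per cell cannot be told apart.

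Meis1, a Hox cofactor found in cerebellar granule neurons, had a log2 change of -0.19 for each allele lost (SE 0.056, adjusted p = 0.0311, edgeR). It was at 52.0, 57.4 and 61.5 CPM (lowest, median and highest) in controls, 45.6, 53.6 and 58.9 in cKO+/- and 30.8, 44.1 and 53.3 in cKO-/- mice. In 4 of 6 cKO-/- libraries Meis1 lay below every control, and the lowest, 30.8, 37.6 and 38.4 CPM, were those of Sample_1385, Sample_1371 and Sample_1379. These were also the 3 cKO-/- libraries with the lowest sums of the granule cell list. In cKO+/- Sample_1433 that list summed to 5353 CPM, and no cKO+/- library had Meis1 under 45.6 CPM. The part of granule cell share in the Meis1 values was not tested. The call was lost when control Sample_1172 or Sample_1190 or cKO-/- Sample_1371, Sample_1379 or Sample_1385 was left out, and with the covariate for the number range (log2 change -0.12, adjusted p = 0.364, edgeR) or those for the choroid plexus and brainstem lists (-0.16, adjusted p = 0.0911).

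Meis2, a relative of Meis1 with expression in forebrain and midbrain neurons, rose by 1.95 on the log2 scale per allele lost (SE 0.56, adjusted p = 0.0286, edgeR), from a low level. It was at 0.113, 0.664 and 2.51 CPM in controls, 0.311, 4.75 and 27.7 in cKO+/- and 0.536, 5.45 and 32.6 in cKO-/- cerebella. As most controls were under 1 CPM, Meis2 passed the filter only with mutant libraries counted. Its change and adjusted p-value carry that selection. The highest 4 libraries were cKO-/- Sample_1385 and Sample_936 and cKO+/- Sample_1433 and Sample_933, at 32.6, 29.6, 27.7 and 21.3 CPM, while cKO-/- Sample_1160 lay within the controls. In the same 4 libraries the oligodendrocyte lineage list, of which 2 of 12 genes were called higher, summed to 8037, 9643, 8760 and 7982 CPM against 4080 to 6025 in controls. The neocortex list (3 of 7 tested genes called higher) summed to 207, 224, 187 and 183 CPM there against 106 to 146 in controls, the brainstem and midbrain list (1 of 7 called) to 48.0, 101, 59.7 and 58.7 against 29.3 to 45.8, and the choroid plexus list (0 of 9 called) to 39.1, 3175, 3314 and 2473 against 17.8 to 25.9. The thalamus list, with none of its 9 tested genes called, summed to 760, 749, 667 and 819 CPM there against 604 to 851 in controls. The hippocampal neuron list (3 of 8 called higher) summed to 1119, 1025, 777 and 1090 CPM against 910 to 1240. The striatum and septum list (1 of 6 called higher) summed to 336, 263, 283 and 270 CPM against 247 to 338. The meninges list (7 of 12 called higher) summed to 668, 635, 519 and 522 CPM against 269 to 361. With the mean log2 levels of the choroid plexus and brainstem lists as covariates the change of Meis2 was 0.80 (adjusted p = 0.146, edgeR). The part of the other lists was not tested. Without mice Sample_933, Sample_936 and Sample_1433 the change was 1.60 (adjusted p = 0.0336, edgeR), without Sample_1379 and Sample_1385 as well it was 0.91 (adjusted p = 0.233), and with the covariate for the number range 0.56 (adjusted p = 0.592). The call was also lost without control Sample_1129, Sample_1172 or Sample_1190, or without cKO-/- Sample_936 or Sample_1385, the last with a change of 1.41. Meis1 and Meis2 thus differed in direction within a family of close relatives, while Meis3, Pbx2, Pbx3 and Pbx4 were not called and had log2 changes between -0.05 and 0.12.

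Promoters of these genes, from RefSeq on GRCm38.p6 and reaching from 250 bases before to 50 after an annotated start, are shown for Barhl1, the most stable of the cerebellar calls, and for Meis1 and Meis2, relatives called in opposite directions. Letters in capitals mark TGACAG, the core that Meis proteins bind, or TAATTA, a core of many homeodomain proteins, each searched on both strands. Barhl1 has a pair of annotated starts, of which the first holds a TGACAG match on the opposite strand and the second a TAATTA match, while neither word nor the Pbx and Hox word TGATTNAT occurs in the windows of Meis1 and Meis2.
Barhl1, chr2:28912446-28912745, - strand: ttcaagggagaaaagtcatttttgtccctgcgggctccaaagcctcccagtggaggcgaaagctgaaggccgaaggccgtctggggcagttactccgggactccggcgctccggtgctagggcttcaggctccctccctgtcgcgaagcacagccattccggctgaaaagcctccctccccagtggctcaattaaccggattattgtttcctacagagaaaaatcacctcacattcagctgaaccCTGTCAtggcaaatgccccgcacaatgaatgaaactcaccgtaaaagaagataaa
Barhl1, chr2:28916619-28916918, - strand: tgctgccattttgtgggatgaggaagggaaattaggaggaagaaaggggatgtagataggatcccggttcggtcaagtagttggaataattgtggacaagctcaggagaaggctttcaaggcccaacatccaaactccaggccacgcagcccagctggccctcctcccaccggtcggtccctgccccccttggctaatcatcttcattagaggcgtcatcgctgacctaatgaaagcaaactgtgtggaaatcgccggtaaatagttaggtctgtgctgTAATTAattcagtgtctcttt
Meis1, chr11:19018920-19019219, - strand: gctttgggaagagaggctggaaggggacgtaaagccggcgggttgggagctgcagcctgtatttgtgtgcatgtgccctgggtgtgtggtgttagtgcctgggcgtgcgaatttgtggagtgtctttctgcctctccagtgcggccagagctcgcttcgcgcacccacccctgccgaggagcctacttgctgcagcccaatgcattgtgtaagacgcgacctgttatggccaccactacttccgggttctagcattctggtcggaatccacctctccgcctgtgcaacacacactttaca
Meis2, chr2:116064570-116064869, - strand: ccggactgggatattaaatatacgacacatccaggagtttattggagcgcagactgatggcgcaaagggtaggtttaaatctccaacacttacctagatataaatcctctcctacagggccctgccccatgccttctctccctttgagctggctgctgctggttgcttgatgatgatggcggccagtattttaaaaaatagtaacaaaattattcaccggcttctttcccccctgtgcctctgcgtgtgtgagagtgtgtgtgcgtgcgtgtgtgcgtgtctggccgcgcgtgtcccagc
TGACAG occurred in 15.6% of the 90 promoters found for 76 of the genes and in 19.2% of all 32851 promoters, TAATTA in 10% and 5.3%, and TGATTNAT in 5.6% and 3.2%. A match describes the letters and does not show binding.

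Irx1, an Iroquois factor that was higher in cerebellum than in hippocampus, rose by 0.17 on the log2 scale per allele lost (SE 0.052, adjusted p = 0.0387, edgeR). It was at 7.09, 8.64 and 9.55 CPM in controls, 9.07, 10.1 and 12.4 in cKO+/- and 8.48, 11.1 and 11.9 in cKO-/- mice, so that 5 of 6 cKO-/- libraries lay above every control and animal Sample_1160 did not. The other Iroquois genes tested were not called. Irx2 was at 4.30, 5.45 and 5.98 CPM in controls and 5.83, 7.60 and 12.9 in cKO-/- mice (log2 change 0.31, adjusted p = 0.0601, edgeR), Irx5 had a log2 change of 0.14 and Irx3 of 0.10. Pou3f4, a POU factor, was low in every group. It was at 0.672, 1.41 and 1.58 CPM in controls, 1.24, 1.93 and 2.34 in cKO+/- and 1.80, 1.996 and 2.65 in cKO-/- mice, and all 6 cKO-/- libraries lay above all controls. Its change of 0.33 per allele lost (SE 0.10, adjusted p = 0.0402, edgeR) rests on 21 to 46 counts per control library and 42 to 78 per cKO-/- library. Irx1 and Pou3f4 both lost their call when control Sample_1129, Sample_1170, Sample_1172 or Sample_1190 or cKO-/- Sample_1385 was left out and with the covariate for the number range (log2 changes 0.09 and 0.19, adjusted p = 0.436 and 0.420, edgeR) or those for the choroid plexus and brainstem lists (0.12 and 0.25, adjusted p = 0.150 and 0.140). Irx1 also lost it without control Sample_1155 or cKO-/- Sample_1219 or Sample_1379, and Pou3f4 without control Sample_1192 or cKO-/- Sample_936 or Sample_1371.

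Among the genes not called, Lhx9, a LIM factor of thalamus, midbrain and hippocampal neurons, had the largest log2 change, 2.03 per allele lost (SE 0.67, adjusted p = 0.0505, edgeR). It was at 0.0344, 0.189 and 0.461 CPM in controls, 0.280, 0.929 and 13.5 in cKO+/- and 0.446, 1.39 and 20.7 in cKO-/- mice. As no control exceeded 1 CPM, Lhx9 passed the filter only through mutant libraries, and its change and adjusted p-value carry that selection. The highest pair, 20.7 CPM in cKO-/- Sample_1385 and 13.5 in cKO+/- Sample_1433, stood far above the rest. Pbx3 had a log2 change of 0.12 (adjusted p = 0.0688, edgeR), with 22.1 to 31.9 CPM in controls and 28.7 to 36.4 in cKO-/- mice. The genes with the highest cerebellar levels were not called, En2 at 172 to 217 CPM in controls and 120 to 234 in cKO-/- mice (log2 change -0.06), Pax6 at 106 to 127 and 66.4 to 132 (-0.07) and Lhx1 at 28.8 to 60.9 and 40.8 to 60.7 (0.01). En1 differed widely between controls, from 0.172 to 6.72 CPM, and had a log2 change of -0.67 (SE 0.44, adjusted p = 0.317, edgeR).

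**Figure D2:**
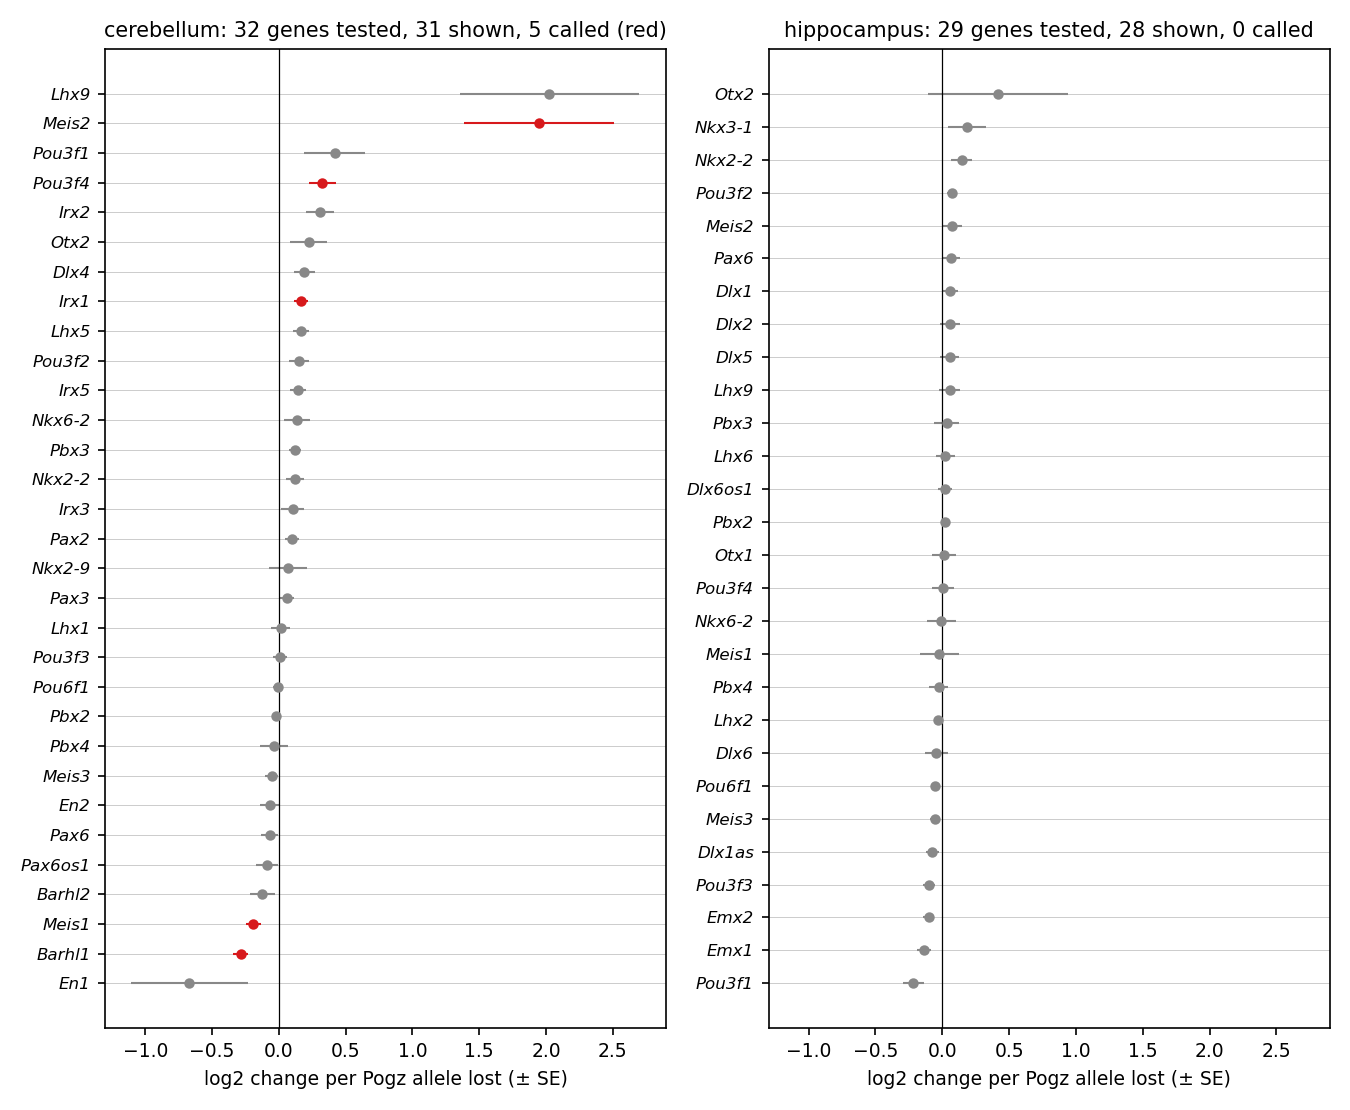
Log2 change per Pogz allele lost, with its SE, of the tested homeobox and Pax genes in the cerebellum (left, 31 of 32 genes shown) and the hippocampus (right, 28 of 29 shown), called genes in red. Lhx9 and Meis2 have the largest cerebellar changes and the widest errors, and no hippocampal gene was called.

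**Figure D3:**
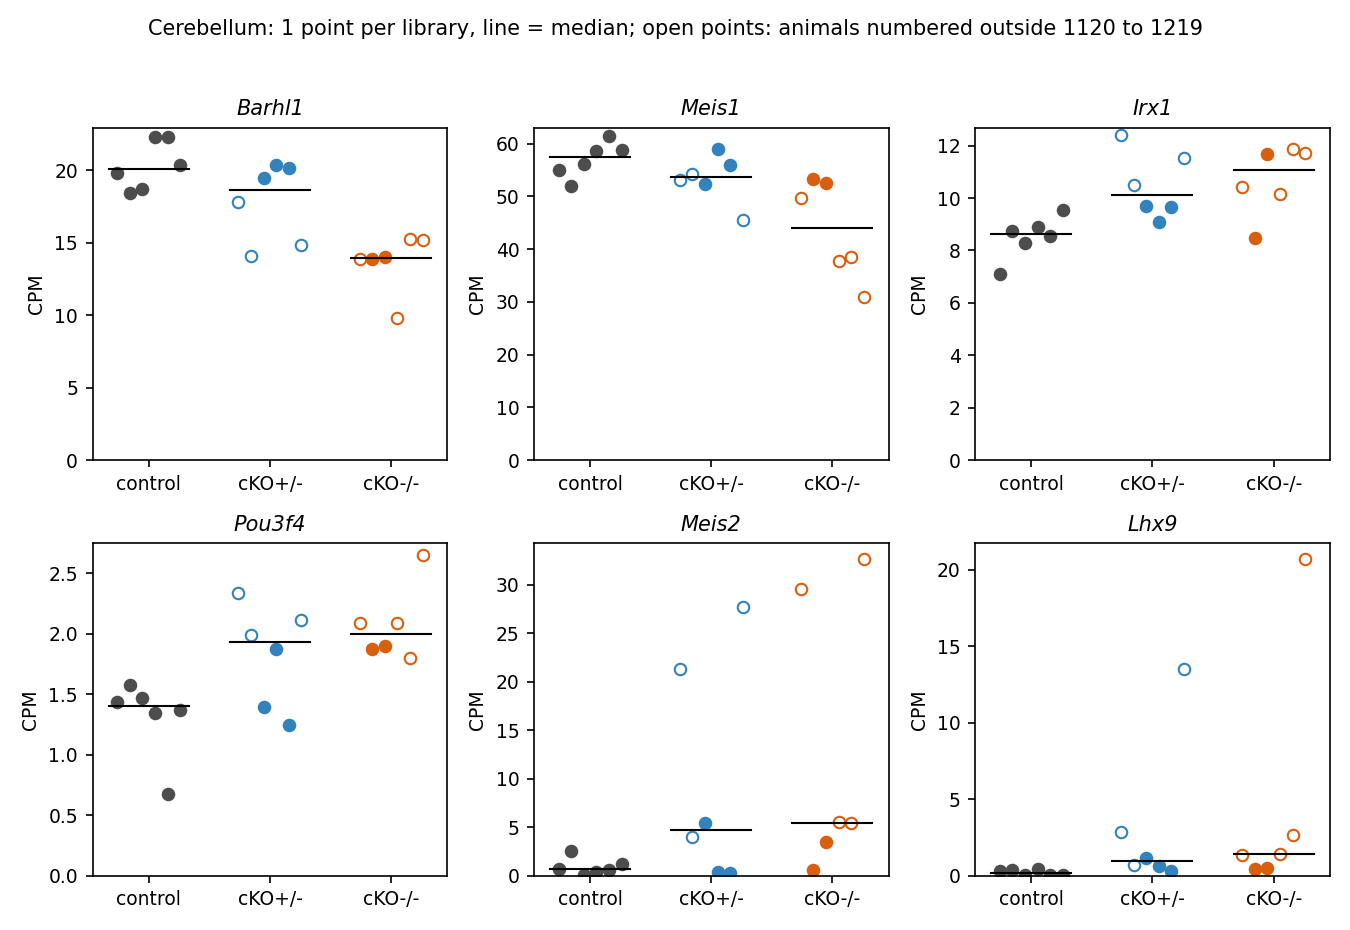
CPM of Barhl1, Meis1, Irx1, Pou3f4, Meis2 and Lhx9 in the 18 cerebellar libraries by genotype, 1 point per library, with a line at the median and open points for animals numbered outside Sample_1120 to Sample_1219. Barhl1 and Pou3f4 separate controls from cKO-/- mice, while Meis2 and Lhx9 are carried by a few open points.

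The Hox genes, whose expression ends behind the cerebellum in the hindbrain, were at the floor in 15 of 18 cerebellar libraries. The 39 coding Hox genes together held 3 to 21 counts in each of these 15, controls included (3 to 19), and 127, 330 and 668 counts in cKO+/- Sample_933, cKO+/- Sample_1433 and cKO-/- Sample_936. These 3 libraries held 1125 of all 1255 Hox counts, or 89.6%. The reads came from genes of the hindbrain and cervical cord. Of the counts in the 3 libraries 1056, or 93.9%, came from the 12 genes of paralogue groups 2 to 5, all of which had over 10 counts there, against 39 from the 3 genes of group 1 and 30 from the 24 genes of groups 6 to 13, of which Hoxb6 alone had over 10. In cKO-/- Sample_936, Hoxb3 held 111 counts, Hoxb5 109 and Hoxa5 98, in cKO+/- Sample_1433 Hoxa5 held 65, Hoxb5 55 and Hoxb3 48, and in cKO+/- Sample_933 Hoxb3 held 25 and Hoxa2 20. The makeup of the 3 libraries differed, as group 5 genes gave 223 counts in Sample_936 and 133 in Sample_1433 but 11 in Sample_933. The highest Hox level of any cerebellar library was that of Hoxb3 in Sample_936, at 4.15 CPM.

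The same 3 cerebellar libraries stood apart in the genes of other tissues. The choroid plexus list, of whose 15 genes 9 were tested and none called, summed to 2473, 3314 and 3175 CPM in Sample_933, Sample_1433 and Sample_936 against 17.8 to 80.5 in the other 15 libraries, with 60465, 95864 and 75124 counts of its leading gene Ttr. The brainstem and midbrain list, of whose 20 genes 7 were tested and 1 called, and of which 8 held at most 3 counts in every control, summed to 58.7, 59.7 and 101 CPM against 29.3 to 48.0, with 276, 157 and 597 counts of Glra1, the glycine receptor subunit of brainstem and cord, against 0 to 56. Among the homeobox genes, Lmx1a, a roof plate and choroid plexus factor, was at 3.67, 2.97 and 3.21 CPM in these libraries against 0.0341 to 0.831 in the other 15, and Otx2 at 17.9, 18.2 and 23.2 CPM against 6.56 to 12.8. Within each mutant genotype libraries of both kinds were found, and no control was among the 3. All 3 were males numbered outside Sample_1120 to Sample_1219, while cKO-/- Sample_1371, also such a male, was not among them. The part of other tissue in the Hox, Lmx1a and Otx2 values was not tested.

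The promoter of Hoxa2, the Hox gene expressed furthest forward in the hindbrain, is shown because its window holds both cofactor words, TGACAG and, on the opposite strand, TGATTNAT, in capitals.
Hoxa2, chr6:52164782-52165081, - strand: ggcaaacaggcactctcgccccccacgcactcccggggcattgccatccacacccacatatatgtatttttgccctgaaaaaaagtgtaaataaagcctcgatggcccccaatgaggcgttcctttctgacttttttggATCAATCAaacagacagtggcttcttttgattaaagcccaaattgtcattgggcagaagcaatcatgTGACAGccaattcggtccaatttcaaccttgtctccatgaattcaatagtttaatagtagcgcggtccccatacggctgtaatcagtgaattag
Hoxa2 held 39 counts in cKO-/- Sample_936, 20 in cKO+/- Sample_933 and 9 in cKO+/- Sample_1433, and 12 in the other 15 libraries together.

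A further group of genes peaked in other cerebellar libraries. Lhx2, the forebrain factor, held 86 counts in cKO-/- Sample_1385, 59 in cKO-/- Sample_936, 56 in cKO+/- Sample_1433, 35 in cKO+/- Sample_933 and 16 in cKO-/- Sample_1379, and 0 to 2 in each of the other 13 libraries. Pou4f2, a POU factor of retinal ganglion cells and midbrain, held 80 counts in Sample_1385, 40 in Sample_1433 and 11 each in Sample_1379 and Sample_933, none in Sample_936 and none in any control. Pax7, a factor of the dorsal midbrain, held 33 counts in Sample_1385, 20 in Sample_1433 and 4 in Sample_1379, and at most 1 elsewhere. Pou4f1 held 31 in Sample_1385, 30 in Sample_1433 and 14 in Sample_1379, Emx2 23, 25 and 9, and each was at most 7 in the other 15. Tcf7l2, a factor of thalamus and midbrain that is in no family here, was at 67.8 CPM in Sample_1385, 39.5 in Sample_1433 and 15.3 in Sample_1379, against 4.50 to 13.3 in the other 15. Hox reads and these reads therefore did not rank the libraries alike, since Sample_936 led for Hox and held no Pou4f2 or Pax7, and Sample_1385 held 21 Hox counts. Of the 84 genes that did not pass the filter in cerebellum, 16 exceeded 1 CPM in some library, all 16 with their highest value in Sample_933, Sample_936 or Sample_1385. None of the 11 with a median over 3 counts in a group had cKO-/- and control libraries that did not overlap, beside 3.34% of all such genes. In the hippocampus none of 15 such genes did, beside 3.39%.

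**Figure D4:**
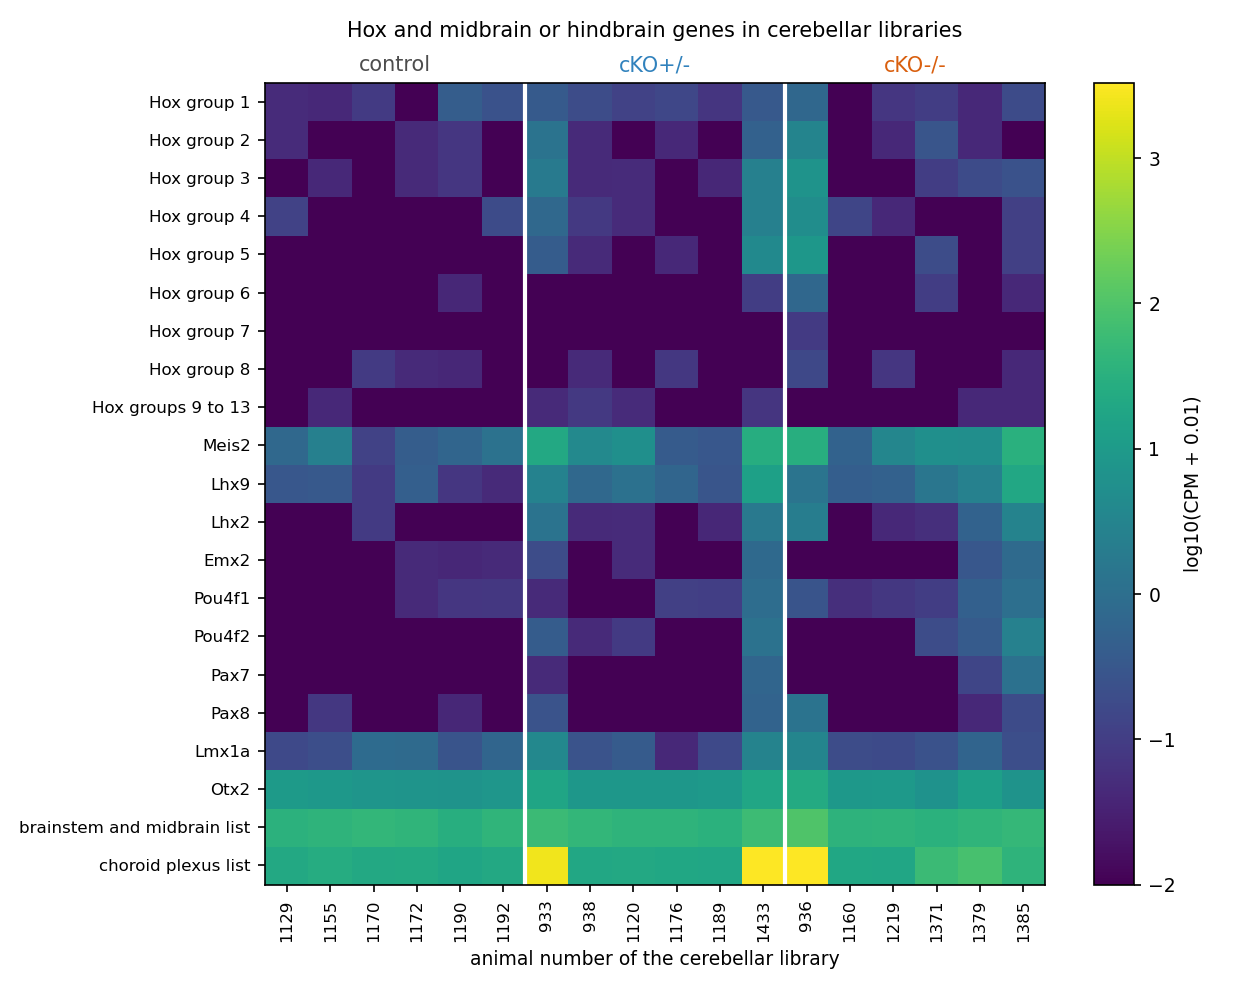
Log10(CPM + 0.01) of Hox paralogue groups, of 10 other homeobox and Pax genes and of the brainstem and choroid plexus lists in the 18 cerebellar libraries, by genotype and animal number. Hox groups 2 to 5, Lmx1a and the choroid plexus list are bright in Sample_933, Sample_1433 and Sample_936, and Lhx9, Pou4f2 and Pax7 in Sample_1433 and Sample_1385.

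In the hippocampus none of the 29 genes tested was called, beside 4.44% of all 14339 genes tested (2.09% higher and 2.35% lower), with 3 at an unadjusted p under 0.05 by edgeR and none called, 8 at an unadjusted p under 0.05, by DESeq2. The median change over the 29 was 0.02 on the log2 scale, and over all genes tested 0.00. By family the medians were 0.04 for 6 Dlx transcripts, 0.02 for 7 Meis and Pbx genes, 0.02 for 3 Lhx genes, 0.14 for 3 Nkx genes, -0.05 for 4 Emx and Otx genes and -0.05 for 5 POU genes. The forebrain genes Pou3f1, Emx1 and Emx2 had the smallest adjusted p-values. Pou3f1, a POU factor of CA1 and cortical neurons, was at 57.0, 76.3 and 88.4 CPM in controls (lowest, median and highest), 45.0, 64.8 and 74.0 in cKO+/- and 37.7, 49.5, 50.1, 69.8 and 74.6 in the 5 cKO-/- mice (log2 change -0.22, SE 0.079, adjusted p = 0.129, edgeR). Emx1 was at 11.9, 13.2 and 15.4 CPM in controls, 9.41, 11.7 and 13.6 in cKO+/- and 8.23, 10.9, 11.2, 12.2 and 12.7 in cKO-/- mice (log2 change -0.14, SE 0.053, adjusted p = 0.153). It reached 25.6 CPM in the library of Sample_1160, with which its change was -0.01 over all 18 libraries. Emx2 was at 17.5, 18.1 and 20.3 CPM in controls, 14.1, 15.8 and 19.4 in cKO+/- and 15.1, 15.6, 16.1, 16.7 and 17.4 in cKO-/- mice (log2 change -0.10, SE 0.041, adjusted p = 0.167). All 5 cKO-/- libraries lay below every control for Emx2 alone, 1 of 29 genes or 3.45%, beside 3.65% of all genes tested. The transcripts of the interneuron family Dlx had log2 changes between -0.08 and 0.06, and Lhx2, at 63.2 to 76.8 CPM in controls and 62.0 to 71.6 in cKO-/- mice, one of -0.03.

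The 5 genes called in the cerebellum gave other values in the hippocampus. Meis2 was at 28.0 to 56.3 CPM in controls and 38.8 to 53.0 in cKO-/- mice (log2 change 0.07, SE 0.075, adjusted p = 0.623, edgeR). Pou3f4 was at 1.32 to 2.52 and 1.73 to 2.38 CPM (0.00, SE 0.081, adjusted p = 0.983), and Meis1 at 0.676 to 3.21 and 1.14 to 2.06 CPM (-0.02, SE 0.15, adjusted p = 0.956). Barhl1 and Irx1 did not pass the filter there.

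Tested as a difference between the tissues, no gene was called among 45, beside 1.63% of all 14870 genes tested (0.249% with a higher and 1.39% with a lower change in hippocampus). Of the 45, 12 had an unadjusted p under 0.05 by edgeR, all 12 lower in hippocampus. The share of all genes under that p was not counted, so the 12 cannot be set beside it. Most of all genes called were lower in hippocampus as well. The smallest adjusted p-values were those of Lhx2 (-1.85 on the log2 scale, SE 0.51, adjusted p = 0.0541) and Meis2 (-1.77, SE 0.53, adjusted p = 0.0826). Lhx2 did not pass the filter of the cerebellum, where its counts lay almost wholly in a few mutant libraries, with 86 in the highest. DESeq2 called 4 of the genes, Lhx9, Meis2, Pax2 and Pou4f1. An effect called in the cerebellum alone is therefore not shown to differ from the hippocampus by the edgeR test.

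Several genes that are low in hippocampus were high in single libraries of it. Otx2 was at 26.6 CPM in cKO-/- Sample_1385, 19.6 in control Sample_1129, 8.0 in control Sample_1170 and 4.35 in cKO-/- Sample_1219, and at 0.105 to 2.55 in the other 14. Lmx1a was highest in the same 4 libraries, at 3.30, 2.62, 1.30 and 1.13 CPM against 0.0260 to 0.430. These 4 libraries also had the highest sums of the choroid plexus list, 5341, 5154, 2550 and 1203 CPM against 27.8 to 702. Neither gene set separated genotypes, since controls and mutants were among the 4. Otx2 was tested, with a log2 change of 0.42 (SE 0.52, adjusted p = 0.686, edgeR).

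Pou4f1, a factor of the habenula among other nuclei, held 363 counts in control Sample_1172 and 216 in cKO+/- Sample_933, and 0 to 10 in the other 16 hippocampal libraries. Irx2 held 225 and 128 counts in the same pair and 0 to 22 elsewhere, and Irx1 127 and 102 against 4 to 31. The medial habenula list, chosen after these values were seen, summed to 213 and 137 CPM there against 46.2 to 83.8, with 709 and 506 counts of its gene Gpr151 against 11 to 59. Lhx4 held 61 counts in cKO-/- Sample_1385 and 7 in cKO-/- Sample_1219, and at most 3 elsewhere. The pineal list, likewise chosen after, summed to 43.2 and 6.49 CPM in these libraries against 1.78 to 6.06, with 148 and 16 counts of Crx against 0 to 3. Without the filter on low counts Lhx4 was the 1 gene called in the hippocampus (log2 change 3.72 per allele lost, adjusted p = 0.00294, edgeR), and its counts lie almost wholly in these libraries. En2 held 335 counts in control Sample_1129 and 12 to 79 elsewhere, and Barhl1 40 against 0 to 7, in the library with the reads of Gabra6 and Pcp2. Hox counts summed to 3 to 55 per hippocampal library, the highest in cKO-/- Sample_1219, where they were spread over 21 genes. The part of neighbouring tissue in these values was not tested.

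**Figure D5:**
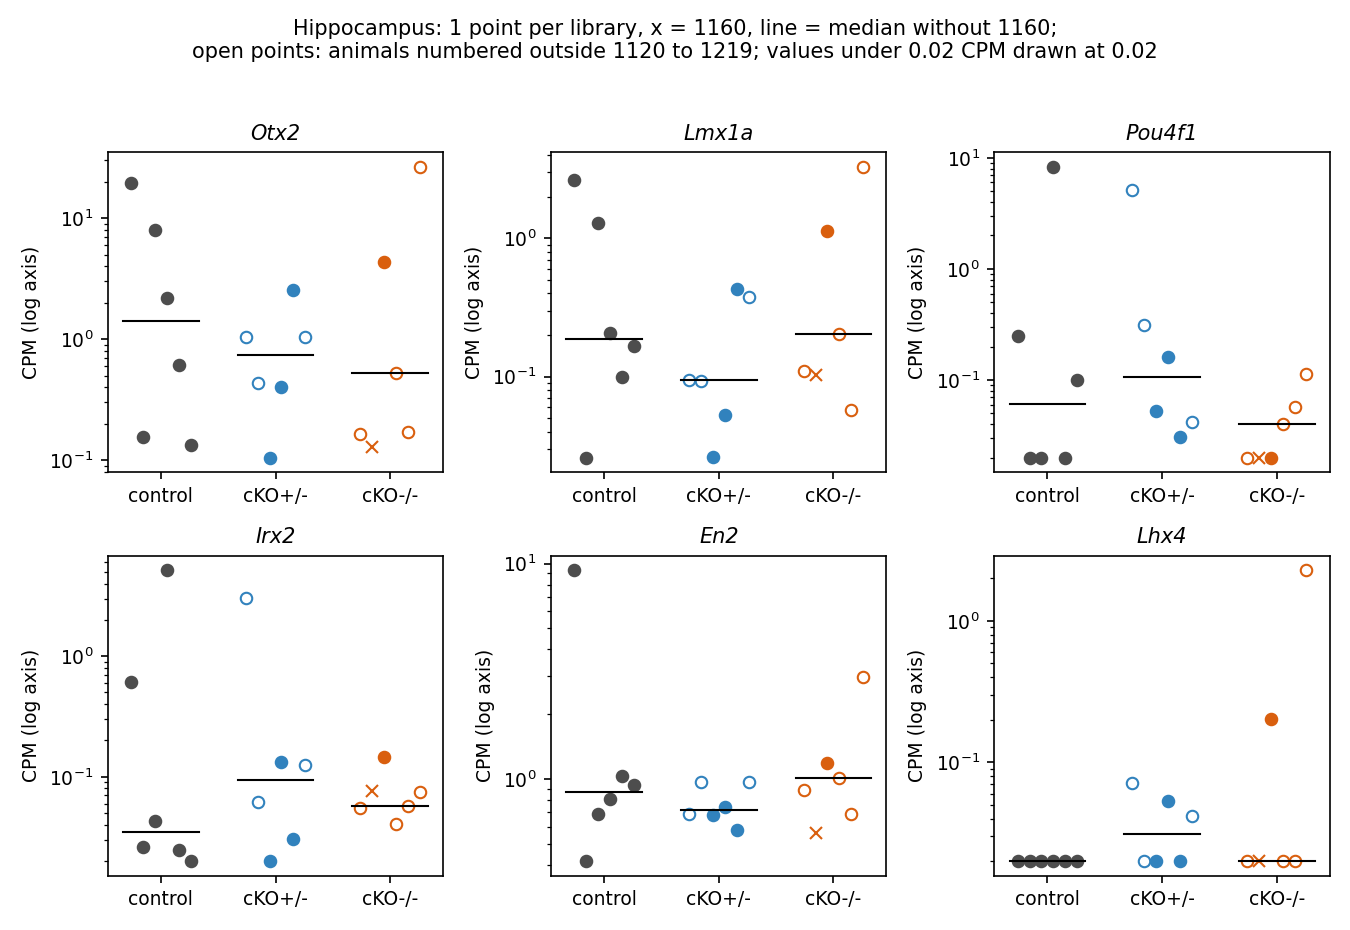
CPM (log axis) of Otx2, Lmx1a, Pou4f1, Irx2, En2 and Lhx4 in the 18 hippocampal libraries by genotype, 1 point per library, with a cross for animal Sample_1160, a line at the median without it and open points for animals numbered outside Sample_1120 to Sample_1219. Each gene is high in 1 to 4 libraries and low in the rest, and for Otx2, Lmx1a, Pou4f1 and Irx2 the high libraries include controls and mutants.

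Other genes of the same pathways were taken from a pair of lists. Of 69 other regional transcription factors, 36 were tested in the cerebellum and 9 were called, all higher, where 7.11% of all genes tested were called higher. In the hippocampus 35 were tested and 1 was called, also higher, beside 2.09% of all genes. Hopx, an atypical homeodomain factor of glia that does not bind DNA, rose in both, by 0.29 (SE 0.058, adjusted p = 0.00321, edgeR) from 189 ± 12.9 to 284 ± 60.4 CPM (SD, n = 6 each) in the cerebellum and by 0.33 (SE 0.046, adjusted p = 0.000349) from 67.7 ± 10.04 to 106 ± 10.1 CPM in the hippocampus (n = 6 and 5). In the cerebellum Satb1 (0.14), Nr2f1 (0.21) and Cux2 (0.20) rose as well, with adjusted p-values of 0.0186, 0.0216 and 0.0284 by edgeR. The median change of this list was 0.09 in the cerebellum and 0.01 in the hippocampus. The astrocyte list, set beside Hopx as a gene of glia, had 4 of 10 tested genes called higher in the cerebellum and 1 of 10 in the hippocampus. It summed to 3910 to 4724 CPM in control and 4425 to 5973 in cKO-/- cerebella, and to 4207 to 5866 and 4513 to 5414 CPM in the hippocampi. Its part in the Hopx values was not tested.

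Of 43 regulators and cofactors of Hox genes, 37 were tested in the cerebellum, with 4 called higher and 2 lower, and 38 in the hippocampus, with 2 higher. These counts are near the shares of all genes called, 13.7% and 4.44%. The retinoic acid synthesising enzymes Aldh1a1 (0.33, SE 0.054, adjusted p = 0.000723) and Aldh1a2 (0.42, SE 0.11, adjusted p = 0.0238) rose in the cerebellum by edgeR's test, the first from 190.1 ± 16.0 to 301 ± 54.3 CPM. Aldh1a1 also rose in the hippocampus, by 0.39 (SE 0.081, adjusted p = 0.00952, edgeR), and so did the retinoic acid receptor Rarb by 0.17 (SE 0.047, adjusted p = 0.0498). Aldh1a2 is also a gene of the meninges list, of whose 12 genes 7 were called higher in the cerebellum, and whose sum was 269 to 361 CPM in controls and 339 to 668 in cKO-/- mice. The Polycomb subunits Cbx7 (-0.16, SE 0.031, adjusted p = 0.00321) and Ring1 (-0.18, SE 0.044, adjusted p = 0.0129) fell in the cerebellum by edgeR's test, Cbx7 from 113 ± 5.44 to 90.9 ± 9.52 CPM. The median change of the list was -0.03 in the cerebellum and -0.02 in the hippocampus.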

How the data were processed

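The authors prepared poly(A) libraries, sequenced paired-end reads of 43 bp and aligned them with STAR (version 250a in the submitters' processing notes), which also counted reads per gene. The deposited values are whole-number counts without normalization, 1 table per tissue. The methods name mm9, while the gene coordinates in the tables match GRCm38: of 23204 genes found in RefSeq GRCm38.p6 by symbol, 98.1% lay within 100000 bases on the same chromosome. The annotation release and use of strand are not given in the sources used here. Exons of 12 of the genes described overlap another gene, so their counts are uncertain. The authors' own comparisons were not used.

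Tissue, genotype, sex and animal number came from the labels. Each library of a tissue is a separate mouse, 6 per group. With edgeR 4.0.16 in R 4.3.3, the quasi-likelihood F-test (earlier form, TMM factors) was run on genes exceeding 1 CPM in 6 libraries or more, with terms for sex and for alleles lost, adjusted by Benjamini and Hochberg over all genes tested and called at 0.05. Signs are per allele lost. Filter and factors of the hippocampus used all 18 libraries and its fit 17. The tissue comparison used the 12 control libraries with sex and tissue. The difference between tissues was an interaction term over 35 libraries. Levels per kb use the exon length in the tables. CPM is computed from the deposited counts with factors set within each tissue, or jointly for the tissue comparison. Single genes were also compared by exact permutation tests. Libraries of the same animal come from its label number, and their deviations from group means had a median correlation of 0.162 over 17 animals (from -0.223 to 0.303, 13 above 0.1). No libraries of a group were duplicates in 90 pairs, each of which differed by more than sampling noise.

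The genes described, the gene lists, the markers and the alternatives were chosen with earlier results of these data known. Named were every gene called, the 8 with the highest control CPM per kb in each tissue, the 6 most extreme in each direction of the tissue comparison, the 3 with the smallest adjusted p not called in each tissue, up to 4 called genes from each of the 2 pathway lists, and Pogz, with 1 gene counted but not reported here. Other genes, among them the Hox genes, Lhx2, Pou4f1, Pou4f2, Pax7, Otx2, Lmx1a, Lhx4 and the marker genes beside them, were named after their values were seen, and so were the habenula and pineal lists. The fits were tested on simulated counts. Alternatives were DESeq2 1.42.0, relative log expression factors, no filter, the bias-adjusted fit, genotype as a factor, covariates for the number range or for the choroid plexus and brainstem lists, the animal as a block, each animal left out, and 4 sets of animals left out, the last chosen after seeing the data. Not every marker list with called genes was described beside a result. Among those left out in the cerebellum was the list of Purkinje cells (1 of 12 tested genes called higher).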

Additional observations from a re-analysis of the deposited data

Results flagged for a closer look

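In groups of 4 to 10 libraries a value was singled out when its gap to the nearest other value was large against the range of its group by Dixon's criterion, which chance meets in about 1 in 20 groups. Of 108 groups, those of the homeobox and Pax genes named by rule, 12 or 11.1% met it. In the cerebellum Sample_1433 and Sample_1385 were high for Lhx9, at 13.5 CPM against 0.280 to 2.84 in the other cKO+/- libraries and 20.7 CPM against 0.446 to 2.65 in the other cKO-/- libraries. The same libraries were high for Pou3f1, at 5.51 CPM against 0.979 to 2.12 and 6.18 CPM against 0.999 to 2.35, and Sample_1385 also for Pou3f4, at 2.65 CPM against 1.80 to 2.09. Control Sample_1190 was low for Lhx1, at 28.8 CPM against 52.4 to 60.9, and for Pou3f4, at 0.672 CPM against 1.35 to 1.58. Sample_1371 was low for Barhl1, at 9.82 CPM against 13.9 to 15.3 in the other cKO-/- libraries, and cKO+/- Sample_1120 low for Pou6f1, at 78.7 CPM against 90.2 to 93.5.

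In the hippocampus cKO+/- Sample_1433 was high for Dlx6os1, at 23.4 CPM against 13.9 to 16.7. Control Sample_1172 was high for Lhx9, at 26.4 CPM against 11.4 to 16.7, and control Sample_1129 high for Pax6, at 13.8 CPM against 7.33 to 9.69.

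The hippocampal library of Sample_1160, left out of the hippocampal tests except where all 18 libraries are named, lay above all other libraries for 4 of these genes. Emx1 was at 25.6 CPM against 8.24 to 15.4 in the other 17 libraries, Dlx1as at 22.99 against 12.8 to 19.6, Meis3 at 70.5 against 26.4 to 35.1 and Pbx2 at 75.9 against 51.8 to 62.9.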

How the results depend on the processing

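Of the 5 genes called in the cerebellum, Barhl1 was called under 27 of 29 alternatives, Meis1 and Meis2 under 20 each, Irx1 under 16 and Pou3f4 under 15. The fit without Sample_1160 stands among the 29 both as a setting of its own and among the single libraries left out. All 5 genes were called in it, so each tally counts it again. The number called in the cerebellum was 5 with relative log expression factors, without a filter and with the bias-adjusted fit, 6 for cKO-/- mice against controls and 7 without Sample_933, Sample_936 and Sample_1433 (a set chosen after seeing the data). It was 0 for cKO-/- against cKO+/- mice and 0 with the covariate for animals named outside Sample_1120 to Sample_1219, 1 with the mean log2 levels of the choroid plexus and brainstem lists as covariates, 11 with DESeq2, 10 without Sample_1160, and 1 without Sample_933, Sample_936, Sample_1433, Sample_1385 and Sample_1379 (chosen after seeing the data). Leaving out 1 library at a time gave 1 to 10, with 1 without control Sample_1172 or Sample_1190 or cKO-/- Sample_1385, 2 without control Sample_1129 and 3 without control Sample_1170 or cKO-/- Sample_1379. The causes were not tested. DESeq2 tested 64 of the genes and added Hoxb3, Irx2, Lhx2, Lhx9, Pou4f1 and Pou4f2. Without a filter Irx1 and Pou3f4 gave way to Hoxb3 and Lhx2.

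In the hippocampus 0 genes were called, and 1 without a filter. Emx2 reversed there for cKO-/- against cKO+/- mice, with a log2 difference of 0.0247. In the difference between tissues of the allele effect DESeq2 called 4, and leaving out 1 animal at a time gave 0 to 4, the highest without Sample_1433 (Emx2, Lhx2, Lhx9 and Meis2). Between the tissues of controls 37 were called, 51 without a filter, 43 with DESeq2 and 37 to 38 with 1 animal left out. DESeq2 gave no adjusted p for Barhl1, Barhl2, En2 and Lhx1 there, and did not call Irx2. With the animal as a replicate block, pairing the tissues of each mouse, 37 genes were called between tissues and 0 in the difference of the allele effects, and no other call of the genes described changed. No block was possible within a tissue, where each library is a separate mouse.

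Over all genes the cerebellar count of 1916 was 2794 with DESeq2, 968 with the choroid plexus and brainstem covariates, 522 without the 5 libraries above, 308 with the covariate for the number range and 58 for cKO-/- against cKO+/- mice, and 935 to 2572 with 1 library left out. The hippocampal count of 636 was 1103 with DESeq2, 246 over all 18 libraries, 268 without Sample_1129, Sample_1172, Sample_933 and Sample_1385, 103 for cKO-/- against cKO+/- mice and 68 with the number range, and 286 to 937 with 1 library left out. The count for the difference of 243 was 450 with DESeq2, 354 with the animal as a block and 18 with the number range, and 115 to 469 with 1 animal left out.

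Depth limits the 72 genes that passed the filter in neither tissue, the Hox genes among them. A gene with no count in a library is only shown to lie under a floor of 3 counts there, and intervals and floors cover counting error only.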
